A study of Mus musculus with 2 samples.

Results

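The cells described here are intestinal macrophages that carried transcripts of complement component C1q. They were taken from single-cell RNA-seq of the dissociated whole intestine of wild-type mice, 1 mouse and 1 library for each diet. The mouse of the butyrate library received 1% butyrate in its diet. The RA library came from a mouse on standard chow, whose group is named RA in the sample title and CIA in the design text. The sources used here do not say whether the butyrate mouse also had arthritis, and they give no strain, age or sex. A cell barcode was kept when it held at least 500 UMIs (unique molecular identifiers, each counting 1 captured transcript), at least 250 detected genes and at most 25% mitochondrial UMIs. A kept cell was called a C1q positive macrophage when C1qa, C1qb and C1qc together gave at least 10 UMIs, with at most 1 UMI of the B cell gene Cd79a, none of the T cell gene Cd3e, none of the epithelial gene Epcam and fewer than 5 UMIs of the fibroblast gene Col1a2. This gave 186 cells of 15156 kept cells, of which 78 of 8247 were in the butyrate library and 108 of 6909 in the RA library. No barcode was shared between the 2 libraries among these cells. With 1 library for each diet there was no replicate, so no test was run, and every difference below compares 2 libraries, not 2 diets. Intervals in brackets are exact 95% intervals and cover counting error only.

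Macrophages of the intestinal wall take up dying cells, debris and microbes, and they present antigen, release cytokines and support the epithelium, vessels and nerves around them. C1q, which starts the classical complement pathway, is made mainly by macrophages in many tissues. Macrophages that stay in a tissue for long often carry scavenger and uptake receptors such as Mrc1 (the mannose receptor), Folr2 (a folate receptor) and Lyve1 (a hyaluronan receptor), while cells recently derived from monocytes carry less of them. Butyrate is a short-chain fatty acid made by gut bacteria that inhibits histone deacetylases and signals through receptors such as the one encoded by Hcar2.

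The C1q positive macrophages made up 0.946% (0.748 to 1.18) of kept cells in the butyrate library and 1.56% (1.28 to 1.88) in the RA library, a ratio of 0.605 (0.446 to 0.817). They held a median of 7055.5 UMIs per cell in the butyrate library and 5448 in the RA library, and 607340 and 730971 UMIs in all. The ratio of shares was 0.711 (0.489 to 1.03) when at least 20 C1q UMIs were asked for. It was 0.475 (0.357 to 0.628) with at least 3 C1q UMIs and at least 1 per 1000 UMIs of the cell. Just below the minimum, with 8 or 9 C1q UMIs, lay 2 butyrate cells and 11 RA cells, and just above it, with 10 or 11, lay 3 butyrate cells and 15 RA cells. The other 4 limits left out 29 of 107 kept butyrate cells with enough C1q UMIs and 22 of 130 such RA cells, most of them for an Epcam UMI (15 and 16 cells). The lowest barcode of the butyrate library held 2313 UMIs and that of the RA library 501. Shallow cells could thus enter only from the RA library. With a minimum of 2313 UMIs in both libraries, 78 of 8247 butyrate and 94 of 6178 RA cells were macrophages. The ratio of shares was then 0.622 (0.454 to 0.848).

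**Figure D1:**
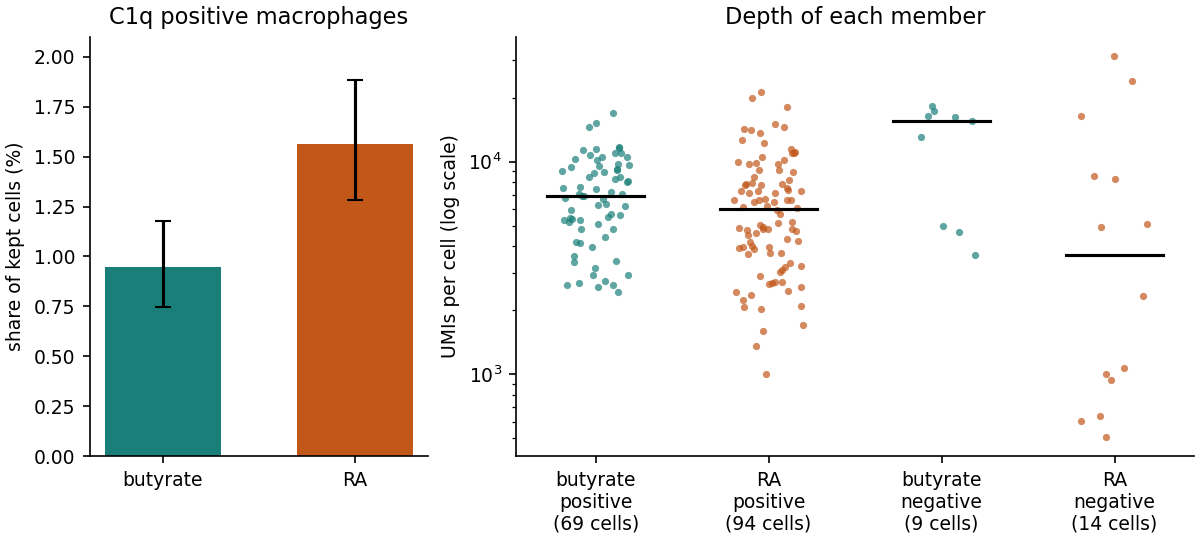
The left panel plots the share of kept cells that were C1q positive macrophages in each library, in percent, with exact 95% intervals of counting error: 0.946% in the butyrate library and 1.56% in the RA library. The right panel plots the UMIs of every such cell on a log scale, by library and by Mrc1/Folr2/Lyve1 status, with the median as a line; the RA negative cells reached from 507 to 31416 UMIs.

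The label of macrophage held for these cells as a group. Besides C1q, which chose them, they carried Lyz2 (lysozyme M) at 9802 CPM in the butyrate library and 8426 CPM in the RA library, where CPM is UMIs per 1000000 UMIs summed over the cells. Csf1r, the receptor that macrophages need for survival, was detected in 70 of 78 butyrate and 82 of 108 RA cells, and Adgre1, which encodes the F4/80 antigen, in 52 and 70 cells. Adgre1 did not mark the cells with no UMI of Mrc1, Folr2 or Lyve1 well: 2 of 9 such butyrate and 3 of 14 such RA cells had it. Csf1r was detected in 8 and 9 of these cells. In the nearest other myeloid cells, dendritic cells with at least 2 Flt3 UMIs and at least 20 of Cd74 (24 in the butyrate library and 20 in the RA library), C1qa, C1qb and Pf4 had no UMI (the gate allowed fewer than 10 of C1q), and Lyz2 stood at 55.6 and 35.2 CPM. The summed level of each of 13 of the 14 marker lists of other cell types was low: the highest were dendritic markers, at 143 CPM in the butyrate and 178 CPM in the RA library, and plasma cell markers, at 173 and 167 CPM. The lists of B, T, epithelial and fibroblast markers include Cd79a, Cd3e, Epcam and Col1a2, which the choice of cells limited. Low levels of these lists were thus partly set in advance. The levels of the lists in their own cell types are not given here. Between the cells positive and negative for Mrc1, Folr2 or Lyve1, split below, dendritic markers stood at 124.7 CPM in positive and 227 CPM in negative butyrate cells, and at 155 and 312 CPM in RA cells. T and innate lymphoid markers stood at 103 CPM in positive and 236 CPM in negative butyrate cells, and at 89.6 and 94.5 CPM in RA cells. The exception among the 14 lists was haemoglobin in 1 negative butyrate cell, which gave 2452 of its 4969 UMIs, 49.3%. The part of other cells' RNA in the results below was not tested.

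Mrc1, Folr2 and Lyve1 split the macrophages into positive cells, with at least 1 UMI of any of them, and negative cells, with none. There were 69 positive and 9 negative cells in the butyrate library, and 94 positive and 14 negative cells in the RA library, so that 88.5% (79.2 to 94.6) and 87.0% (79.2 to 92.7) were positive. With the UMI minimum of the butyrate library in both libraries, 8 RA negative cells were left in place of 14, and 3 of the 7 RA cells with Il22ra2 described below, of 941 to 1066 UMIs, were among those lost. When each cell was thinned to 1000 UMIs, 62.8% of 78 butyrate macrophages and 62.5% of the 104 RA macrophages deep enough were positive, so a negative call depends on depth. T cells, which should lack these genes, had any of them in 0.145% of butyrate and 0.833% of RA cells at the same depth. Mrc1 was the gene behind most positive calls: Mrc1 alone marked 35 butyrate and 45 RA cells, Mrc1 with Folr2 marked 15 and 24, and all 3 genes together marked 17 and 19. Depth differed between the subsets and between the libraries: positive cells held a median of 6906 UMIs in the butyrate library and 5978.5 in the RA library, and negative cells 15487 and 3638.

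Positive macrophages carried the genes of resident scavenging macrophages, a set of CC chemokines and the heat shock and immediate early genes at higher levels than negative ones. In sums over cells, negative macrophages carried more transcripts of the respiratory chain, and some of them carried Il22ra2, Dnase1l3, Acp5 and Pla2g2d. Deep cells weigh most in these sums. Cells with Il22ra2 held 53288 of the 109991 negative butyrate UMIs. In the RA library they held 69324 of the 105794 negative UMIs, and included cells of 31416 and 24012 UMIs. Lyz2 stood at 0.241 (0.229 to 0.254) in the butyrate library and 0.306 (0.290 to 0.322) in the RA library, positive over negative, but in the butyrate library 2612 of the 2846 negative UMIs lay in the 4 cells with Il22ra2. Positive butyrate cells stood at 6247 CPM and the 5 negative ones without Il22ra2 at 4127 CPM. Over all genes with at least 20 UMIs in the library's macrophages, the ratio of positive over negative cells was above 1 for 51.3% in the butyrate library and 50% in the RA library, with median log2 ratios of 0.02 and -7.07e-05. It was at least 2-fold higher for 15.8% and 21.7%, and at least 2-fold lower for 10.3% and 14.0%.

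Of the scavenger genes, 21 of 23 were higher in positive cells of the butyrate library and 27 of 27 in the RA library, with median log2 ratios of 3.25 and 3.90. These counts include the genes that made the split and many genes with no UMI in the negative cells; with such genes set at their bound (3 counts over the negative cells), the medians were 1.93 and 2.06. Cd163, the receptor that clears haemoglobin bound to haptoglobin, gave 144 UMIs in positive and 0 in negative butyrate cells, at least 10.6-fold higher. It gave 237 UMIs in positive and 0 in negative RA cells, at least 13.4-fold higher. Clec10a, a lectin that binds galactose-type sugars, gave 152 and 261 UMIs in positive cells and none in negative cells of either library. Selenop, a selenium carrier, stood at ratios of 5.94 (4.18 to 8.75) in the butyrate library and 15.7 (9.63 to 27.5) in the RA library. F13a1, the A subunit of coagulation factor XIII, stood at 10.2 (5.12 to 23.8) and 124 (22.2 to 4899); without the cell rich in haemoglobin the butyrate value was 39.0. Maf, a transcription factor of resident macrophages, stood at 10.2 (4.88 to 25.5) and 16.4 (6.97 to 50.7). Ednrb, an endothelin receptor, and Slc39a12, a zinc transporter, also had no UMI in any negative cell, against 80 and 53 UMIs in positive butyrate cells and 223 and 88 in positive RA cells.

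Chemokines that draw monocytes were almost confined to positive cells among these macrophages. Per 10000 UMIs of the cell, Ccl2 was lowest 0, median 13.5, highest 119 in positive butyrate cells and lowest 0, median 0, highest 2.75 in negative butyrate cells. In positive RA cells it was lowest 0, median 19.3, highest 172, and in negative RA cells lowest 0, median 0, highest 4.16. Every negative cell thus lay below the median of the positive cells of its library, although positive cells without Ccl2 also occurred. Summed over cells, Ccl2 gave 1498 UMIs in positive and 1 in negative butyrate cells, a ratio of 331 (59.4 to 13094), and 1922 and 13 UMIs in RA cells, a ratio of 25 (14.6 to 47.1). Ccl7 gave 974 against 0 UMIs and 921 against 1. Ccl8 gave 746 against 1 and 1288 against 1, and Ccl12 gave 257 against 2 and 163 against 0. Of the chemokine list, 11 of 16 genes were higher in positive cells in the butyrate library and 14 of 17 in the RA library (median log2 ratios 0.77 and 2.93, the RA one 1.76 with genes at 0 set at their bound). Of other chemokines, Ccl5 stood at ratios of 0.288 (0.162 to 0.520) and 0.0604 (0.0170 to 0.178), and Cxcl14 at 0.211 (0.108 to 0.408) and 0.0338 (0.0101 to 0.0900). These ratios rest on few negative cells: Ccl5 had a UMI in 2 of 9 butyrate and 1 of 14 RA ones, and Cxcl14 in 4 and 3. Cxcl2, a neutrophil attractant, stood at 1.46 (1.37 to 1.56) and 1.25 (1.15 to 1.35) in the sums, of which few negative cells held most: 600 of 990 negative butyrate UMIs lay in 1 cell, and 337 and 301 of 741 negative RA UMIs in 2 cells. Per 10000 UMIs its median was 81.1 in positive and 10.5 in negative butyrate cells, and 54.5 and 0 in RA cells, with a UMI in 82 of 94 positive and 5 of 14 negative RA cells.

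**Figure D2:**
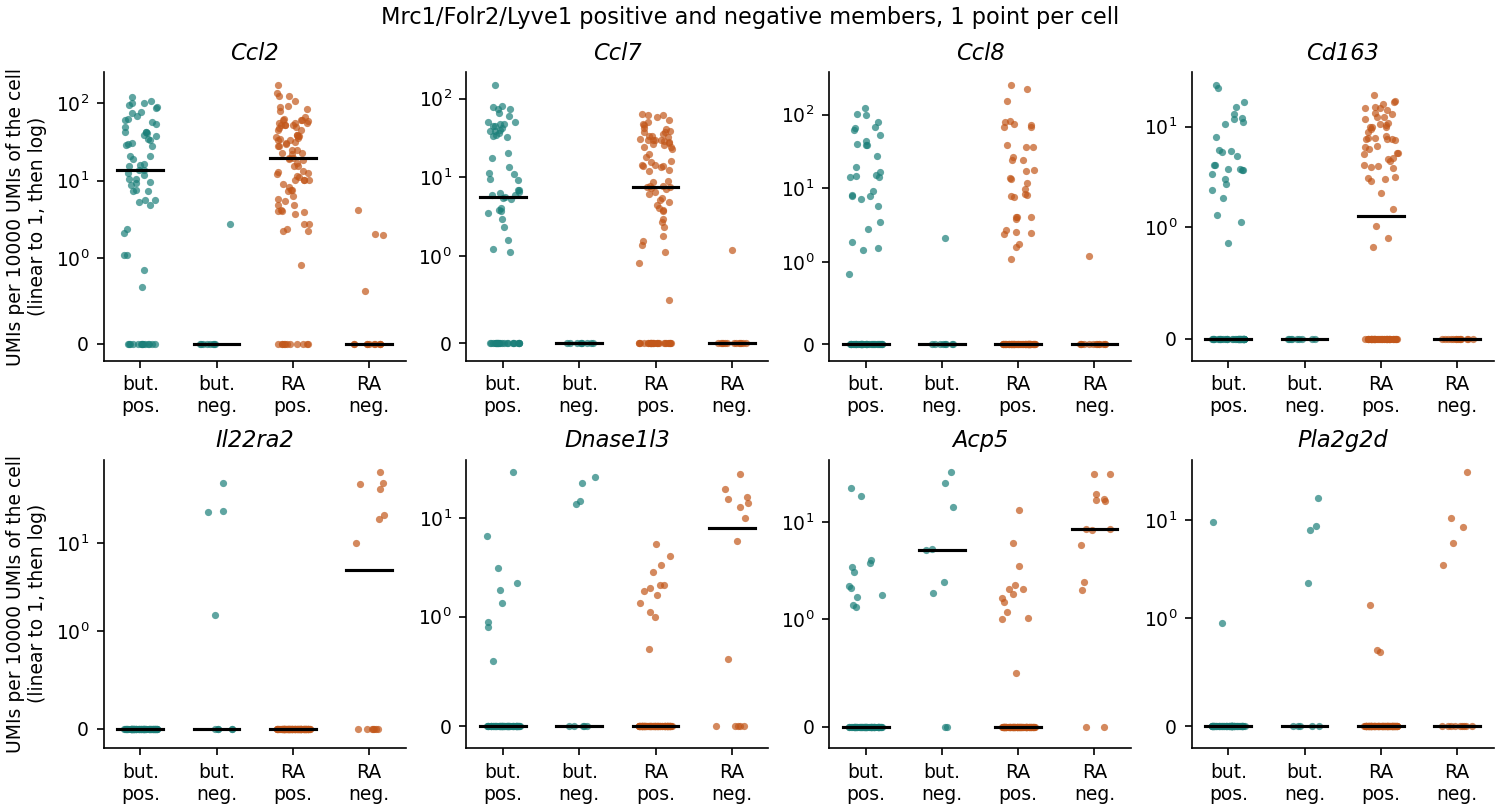
Each point is 1 macrophage, and the vertical axis gives UMIs of the gene per 10000 UMIs of the cell, linear up to 1 and logarithmic above; lines are medians, and the groups are positive (pos.) and negative (neg.) cells of the butyrate (but.) and RA libraries. In negative cells Ccl2, Ccl7, Ccl8 and Cd163 reach at most 4.16, while Il22ra2 is above 0 only in negative cells, 4 of 9 in the butyrate library and 7 of 14 in the RA library.

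Ccl8 and Ccl12 lie near each other on chromosome 11, at chr11:82115185-82116799, plus strand, and chr11:82101845-82103400, plus strand (GENCODE M21, GRCm38). Their promoters are shown because both genes marked positive cells while their ratios between the libraries differed, and they are set beside those of C1qb, which chose the cells, and Mrc1, which made most of the split. Each sequence runs 5′ to 3′ on the strand of the gene from 250 bases before to 50 bases after the start site, from RefSeq on GRCm38.p6. Capitals mark GAGGAA, a core bound by the macrophage factor PU.1, TGCTGA, the core recognised by the Maf family, and TATAAA, the TATA box, each searched on both strands with no overlapping pair found.
Ccl8, chr11:82114935-82115234, plus strand: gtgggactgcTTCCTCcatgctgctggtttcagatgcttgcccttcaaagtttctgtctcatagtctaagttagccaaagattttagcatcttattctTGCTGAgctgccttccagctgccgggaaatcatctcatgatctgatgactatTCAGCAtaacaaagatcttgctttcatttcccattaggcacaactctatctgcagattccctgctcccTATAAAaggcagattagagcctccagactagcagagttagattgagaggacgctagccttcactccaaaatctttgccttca
Ccl12, chr11:82101595-82101894, plus strand: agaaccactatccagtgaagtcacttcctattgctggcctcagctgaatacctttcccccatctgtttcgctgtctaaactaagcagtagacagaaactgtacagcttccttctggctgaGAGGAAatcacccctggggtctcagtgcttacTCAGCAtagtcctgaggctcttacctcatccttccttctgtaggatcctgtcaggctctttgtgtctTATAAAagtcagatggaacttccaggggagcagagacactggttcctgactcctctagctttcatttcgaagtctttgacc
Mrc1, chr2:14229164-14229463, plus strand: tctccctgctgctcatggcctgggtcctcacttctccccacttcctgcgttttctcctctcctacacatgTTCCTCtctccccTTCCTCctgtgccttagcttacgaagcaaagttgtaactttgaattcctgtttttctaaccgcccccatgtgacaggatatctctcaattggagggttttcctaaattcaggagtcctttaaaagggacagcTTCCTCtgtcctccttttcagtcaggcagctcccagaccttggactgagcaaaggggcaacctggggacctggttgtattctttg
C1qb, chr4:136886151-136886450, minus strand: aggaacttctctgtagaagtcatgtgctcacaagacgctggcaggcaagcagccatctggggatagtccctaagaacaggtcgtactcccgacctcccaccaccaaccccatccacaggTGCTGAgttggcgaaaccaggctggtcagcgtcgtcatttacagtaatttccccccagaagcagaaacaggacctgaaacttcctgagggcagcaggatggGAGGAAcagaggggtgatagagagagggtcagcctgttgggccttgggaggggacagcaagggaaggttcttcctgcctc
TATAAA began 32 bases before the start site of Ccl8 and 31 before that of Ccl12, and was found in neither Mrc1 nor C1qb. TGCTGA occurred 2 times in Ccl8, 1 time in Ccl12 and 1 time in C1qb. GAGGAA occurred 3 times in Mrc1 and 1 time in each of the others shown. The promoters of C1qc and Cd163 were also searched and are not shown. That of C1qc held GAGGAA 1 time and neither of the other motifs, and that of Cd163 held none of the 3. Of 32851 promoters of the same length, 28.3% held GAGGAA, 19.5% TGCTGA and 13.6% TATAAA. A match describes the letters in this window and is not a site. C1qa, Ccl2, Ccl7, Lyve1 and Il22ra2 are named without a sequence.

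Other groups of genes also separated the subsets in the summed UMIs, in which few deep negative cells weigh most. All 13 heat shock genes were higher in positive butyrate cells (median log2 ratio 1.38) and 9 of 13 in positive RA cells (0.80). Of 17 immediate early genes, which respond within minutes to stimulation and to tissue dissociation, 16 were higher in positive cells of each library (1.21 and 1.80). Egr1 stood at ratios of 10.5 (7.15 to 15.9) and 6.98 (4.74 to 10.7), and Hspa1a, whose transcripts are hard to tell from those of its near copy Hspa1b, at 4.46 (3.81 to 5.25) and 4.71 (3.92 to 5.71). Of the nuclear genes of the respiratory chain, all 17 measured were lower in positive butyrate cells (-0.67) and 16 of 18 in positive RA cells (-0.79). Glycolysis genes were lower for 10 of 14 and 13 of 14, and MHC class I genes for 10 of 12 in each library. Among MHC class II genes 9 of 13 and 11 of 13 were lower, with H2-Aa itself at 1.05 (0.965 to 1.15) and 0.837 (0.768 to 0.914). Retnla, the secreted resistin-like molecule alpha, gave 5007 UMIs in positive and 174 in negative butyrate cells, those of the negative cells all in the 1 cell rich in haemoglobin, and 5414 and 0 UMIs in RA cells.

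Some negative macrophages carried Il22ra2, together with genes that were rare in positive cells. This gene (chr10:19621998-19634681, plus strand) encodes the soluble IL-22 binding protein, which blocks the epithelial cytokine IL-22. No positive cell had a UMI of it. In the butyrate library 4 of 9 negative cells had 85, 41, 11 and 2 UMIs, and in the RA library 7 of 14 had 132, 45, 42, 15, 5, 2 and 1. This grouping was made after the values were seen, and it rests on few cells. Dnase1l3, an enzyme that digests chromatin, gave 112 UMIs in the butyrate cells with Il22ra2 and none in the other negative butyrate cells. In RA cells it gave 113 and 5 UMIs. Pla2g2d, a secreted phospholipase, gave 41 UMIs in butyrate cells with Il22ra2 and 0 in those without, and 19 and 2 UMIs in the RA cells. Acp5, the tartrate-resistant acid phosphatase, was at 1914 CPM in butyrate cells with Il22ra2 and 265 CPM in those without, and at 1342 and 658 CPM in the RA cells. It had a UMI in 4 of 4 and 3 of 5 of these butyrate cells, but in 5 of 7 and 7 of 7 RA cells. Of its 93 UMIs in RA cells with Il22ra2, 53 lay in the cell of 31416 UMIs and 20 in that of 24012. RA negative cells without Il22ra2 included cells of 507, 603 and 640 UMIs, the last with Dnase1l3, Acp5 and Pla2g2d. The part of depth in their lack of Il22ra2 was not tested. Lyz2 reached 49017 CPM in butyrate cells with Il22ra2 and 4127 CPM in those without, and 25922 and 10913 CPM in the RA cells.

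A few positive cells also carried some of these genes. Dnase1l3 had a UMI in 9 of 69 positive butyrate cells and 13 of 94 positive RA cells, Acp5 in 12 and 13, and Pla2g2d in 2 and 3. In positive cells Dnase1l3 stood at 103 CPM in the butyrate library and 35.2 CPM in the RA library, Acp5 at 141 and 49.6 CPM, and Pla2g2d at 22.1 and 4.80 CPM. One butyrate cell of 10271 UMIs, positive by 1 Folr2 UMI alone, held 29.2 of Dnase1l3, 18.5 of Acp5 and 9.74 of Pla2g2d per 10000 UMIs. Its Acp5 and Pla2g2d lay within the range of the cells with Il22ra2. Its Dnase1l3 lay above their highest values, 26.4 in the butyrate library and 28.1 in the RA library. Another positive butyrate cell, of 15168 UMIs, held 22.4 of Acp5 and 6.59 of Dnase1l3.

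The cells with Il22ra2 carried the macrophage gene Csf1r, though not all in the RA library, and the dendritic gene Flt3 had no UMI in them. Csf1r had a UMI in 4 of 4 butyrate and 4 of 7 RA cells with Il22ra2, and Flt3 in none, which for their summed depth allows up to 69.2 CPM in the butyrate and 53.2 CPM in the RA library. Adgre1 was nearly absent, with 1 and 2 UMIs in all, but it was also low in the negative cells without Il22ra2, with 1 and 4 UMIs. In positive cells it stood at 328 CPM in the butyrate and 312 CPM in the RA library. MHC class II transcripts varied: Cd74 gave 437, 2, 129 and 0 UMIs in the 4 butyrate cells, and 9 to 477 UMIs in the RA cells. Ccl2 gave 0 UMIs in the butyrate cells and 10 in 1 RA cell. Over all negative cells, Itgax (the CD11c integrin) stood at a ratio of positive over negative of 0.255 (0.146 to 0.449) in the butyrate library and 0.0457 (0.0203 to 0.0938) in the RA library, Runx3 at 0.216 (0.135 to 0.344) and 0.146 (0.0883 to 0.241), and the complement gene Cfb at 0.152 (0.0638 to 0.349) and 0.0604 (0.0262 to 0.128). The macrophages held 33.6% of all Il22ra2 UMIs of kept butyrate cells and 72.5% of those of kept RA cells. In the butyrate library 4 cells with at least 2 Epcam UMIs held another 132 UMIs of it. The Flt3 positive dendritic cells had none.

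Within the positive macrophages, those with a Lyve1 UMI stood apart from those with Mrc1 or Folr2 alone. This comparison was chosen after the data were seen; Lyve1 positive cells numbered 18 in the butyrate library and 24 in the RA library, against 51 and 70 other positive cells. Depth was alike, with medians of 6676.5 UMIs in Lyve1 positive and 6906 in other positive butyrate cells, and 5933.5 and 5978.5 in RA cells. The mitochondrial share was not: its median was 2.85% and 1.88% in the butyrate library, and 6.05% and 2.54% in the RA library. Its part in the differences was not tested. Of 872 epithelial butyrate cells 24 had a Lyve1 UMI (2.75%), and 2 did at 1000 UMIs (0.229%), against 7 of 78 macrophages at that depth (8.97%). Over all genes with at least 20 UMIs in positive cells, 53.2% had a ratio above 1 in the butyrate library and 48.8% in the RA library.

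Lyve1 positive macrophages carried more scavenger transcripts and less of the MHC class II and inflammatory ones in both libraries. Of the scavenger genes, which include Lyve1 itself, 22 of 22 were higher in the butyrate library and 24 of 27 in the RA library (median log2 ratios 1.48 and 1.37; the same with Lyve1 at its bound). Pf4 was one of those lower in the RA library, at 0.698. Of the MHC class II genes, 12 of 13 were lower in each library (-1.19 and -1.42). Of the inflammatory mediators, 13 of 14 and 15 of 15 were lower (-0.85 and -1.44). The medians of the RA library were the same with genes at 0 set at their bound. At least 2-fold differences were found for 11% of all genes upward and 11.9% downward in the butyrate library, and for 10.2% and 15.4% in the RA library.

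Per 10000 UMIs of the cell, Cd163 was lowest 0, median 5.78, highest 26.0 in Lyve1 positive butyrate cells and lowest 0, median 0, highest 13.3 in other positive ones. In RA cells it was lowest 0, median 9.57, highest 20.8 in Lyve1 positive and lowest 0, median 0, highest 15.5 in other positive cells. The ranges overlapped, but more Lyve1 positive than other positive cells carried the gene, and the ratios of summed levels were 6.20 (4.34 to 8.96) and 5.71 (4.37 to 7.49). C4b, a complement component, stood at 10.5 (5.83 to 20.2) and 9.97 (6.27 to 16.3), and Cbr2, a carbonyl reductase, at 7.49 (3.71 to 16.1) and 4.19 (2.58 to 6.81). Vsig4, a receptor for complement fragments, and Timd4, a receptor for dying cells, were rare: Vsig4 gave 22 UMIs in Lyve1 positive and 1 in other positive butyrate cells, and 19 and 4 in RA cells. Timd4 gave 11 and 1, and 20 and 10. Gas6, a bridge between dying cells and their receptors, stood at 3.99 (2.81 to 5.71) and 4.78 (3.63 to 6.33), and Tlr4, the sensor of bacterial lipopolysaccharide, at 5.09 (2.51 to 10.7) and 3.76 (1.66 to 8.50).

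H2-Aa, an MHC class II chain, was lowest 0, median 13.7, highest 90.7 per 10000 UMIs in Lyve1 positive butyrate cells and lowest 0, median 64.0, highest 179 in other positive ones. It was lowest 0, median 8.55, highest 61.7 in Lyve1 positive RA cells and lowest 0, median 49.5, highest 211 in other positive ones. The median of the Lyve1 positive cells was the lower one in both libraries, with ratios of summed levels of 0.359 (0.319 to 0.404) and 0.370 (0.326 to 0.419). H2-DMb1, which helps to load peptides, stood at 0.290 (0.151 to 0.512) and 0.187 (0.0883 to 0.351). Among mediators, Il1b (interleukin 1 beta) stood at 0.192 (0.152 to 0.241) and 0.0153 (0.00417 to 0.0394), and its antagonist Il1rn at 0.365 (0.233 to 0.549) and 0.0444 (0.00909 to 0.131). Ptgs2, the inducible cyclooxygenase, gave 3 and 291 UMIs in butyrate cells, and 0 and 146 in RA cells. Fn1 (fibronectin) gave 7 and 263, and 0 and 707. The fractalkine receptor Cx3cr1, carried by many lamina propria macrophages, stood at 0.152 (0.0306 to 0.467) and 0.136 (0.0274 to 0.411), and the monocyte receptor Ccr2 at 0.483 (0.300 to 0.746) and 0.147 (0.0624 to 0.294). Heat shock genes were higher in Lyve1 positive cells for 12 of 13 and 13 of 13, with Hspa1a at 2.0 (1.86 to 2.14) and 2.92 (2.72 to 3.13), and respiratory chain genes lower for 13 of 15 and 14 of 16.

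**Figure D3:**
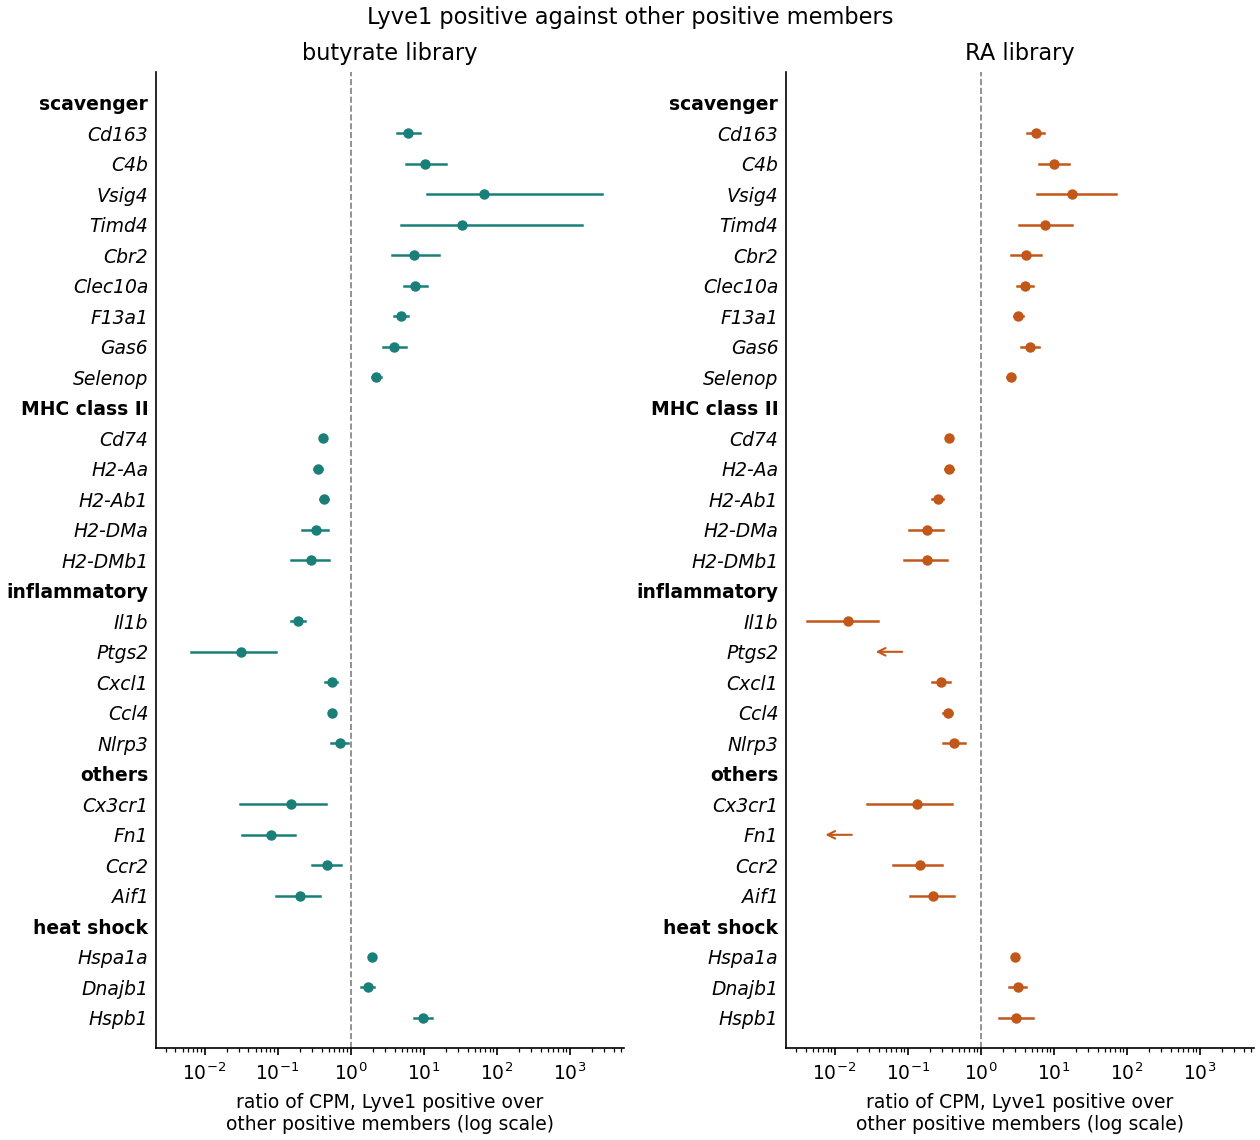
Ratios of CPM in Lyve1 positive over other positive macrophages are plotted on a log scale by gene list, in the butyrate library (left) and the RA library (right), with bars for exact 95% intervals of counting error; an arrow marks a gene with no UMI in Lyve1 positive cells and starts at the upper limit of its ratio. The genes plotted are some of each list. Those plotted from the scavenger list lie right of 1 and those from the MHC class II and inflammatory lists left of 1 in both panels, such as H2-Aa at 0.359 and 0.370.

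Between the libraries, the butyrate macrophages carried less of the scavenger transcripts and more of the MHC class II, inflammatory, type I interferon and heat shock ones than the RA macrophages. Over all 6643 genes with at least 20 UMIs in the macrophages of both libraries together, 42.0% had a butyrate over RA ratio above 1, with a median log2 ratio of -0.09. At least 2-fold differences were found upward for 2.63% and downward for 4.97% of genes. The share of positive cells and of Lyve1 positive cells was close in the libraries (88.5% and 87.0%, and 23.1% and 22.2%).

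Of the scavenger genes, 3 of 27 were higher and 24 lower in the butyrate macrophages (median log2 ratio -0.58). Mrc1 was lowest 0, median 8.12, highest 57.4 UMIs per 10000 in butyrate cells and lowest 0, median 12.7, highest 78.1 in RA cells. The cells of the libraries overlapped over most of this range, and the summed levels were 932 and 1432 CPM, a ratio of 0.651 (0.586 to 0.721). Pf4, platelet factor 4, stood at 744 CPM in the butyrate library and 1299.6 CPM in the RA library, a ratio of 0.573 (0.511 to 0.641). Ratios were 0.716 (0.658 to 0.778) for Selenop, 0.648 (0.579 to 0.726) for the lipid receptor Cd36, 0.619 (0.545 to 0.702) for F13a1 and 0.731 (0.590 to 0.903) for Cd163. Fcna, a ficolin that tags microbes for complement, was among the genes with the lowest ratios at 0.267 (0.151 to 0.450), and Cd209f and Cd209d, lectins with close relatives that can share reads, stood at 0.366 (0.213 to 0.604) and 0.262 (0.0777 to 0.704). Against this, Lyve1 stood at 1.32 (0.967 to 1.82), and Folr2 at 0.963 (0.719 to 1.29).

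Of the MHC class II genes, 13 of 14 were higher in butyrate macrophages, by small factors (median log2 ratio 0.29). Cd74, the invariant chain, was lowest 0, median 94.0, highest 275 UMIs per 10000 in butyrate cells and lowest 0, median 70.0, highest 263 in RA cells, with summed levels of 10709 and 8290.3 CPM and a ratio of 1.29 (1.25 to 1.34). H2-Aa stood at 1.2 (1.15 to 1.26) and H2-Ab1 at 1.25 (1.19 to 1.32). MHC class I genes were split, 7 higher and 5 lower.

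Of the inflammatory mediators, 14 of 17 were higher and 3 lower (median log2 ratio 0.39). Cxcl2 stood at 12397 CPM in the butyrate library and 8478 CPM in the RA library, a ratio of 1.46 (1.41 to 1.51). Ratios were 1.62 (1.54 to 1.70) for Ccl4, 1.31 (1.2 to 1.44) for Cxcl1 and 1.29 (1.13 to 1.47) for the inflammasome sensor Nlrp3. Il1b was detected in 52 of 78 butyrate and 51 of 108 RA cells, at a ratio of 1.72 (1.60 to 1.85), and Ptgs2 in 27 and 22 cells, at 2.12 (1.79 to 2.53). Tnf went the other way at 0.80 (0.625 to 1.02), with an interval that includes 1. Saa3, an acute-phase protein, had no UMI in butyrate cells and 114 in RA cells, 106 of them in 1 cell. The anti-inflammatory cytokine Il10 gave 83 UMIs in butyrate and 180 in RA cells, a ratio of 0.555 (0.423 to 0.724), although regulatory mediators as a list were higher for 11 of 17 (0.19).

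The chemokine list was mixed: 11 of 18 were higher and 7 lower (0.41). Ccl12 stood at 1.91 (1.57 to 2.34) and Ccl7 at 1.27 (1.16 to 1.39), whereas Ccl8 stood at 0.697 (0.637 to 0.764) and Ccl2 at 0.932 (0.871 to 0.998), so the 4 monocyte attractants of positive cells had ratios on both sides of 1. Cxcl10 and Cxcl9, attractants of T cells, stood at 2.22 (1.79 to 2.77) and 2.64 (1.70 to 4.18), but 44 of the 68 Cxcl9 UMIs of the butyrate library lay in 1 cell, and Cxcl9 stood at 0.912 without the highest Scrublet doublet scores. Cxcl13, a B cell attractant, gave 5 UMIs in butyrate and 117 in RA cells, 93 of those of the RA library in 1 cell.

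Of the genes induced by type I interferon, 15 of 18 were higher and 3 lower in butyrate macrophages (median log2 ratio 0.67), 6 of them at least 2-fold. With at least 50 UMIs asked for, fewer genes were counted, and 7 were higher. How many genes reached 50 UMIs is not given here. Isg15, a ubiquitin-like protein, had a UMI in 35 butyrate and 29 RA cells, at 227 and 90.3 CPM and a ratio of 2.52 (1.86 to 3.43). Rsad2, the antiviral enzyme viperin, stood at 2.63 (1.72 to 4.09), Ifi44 at 2.16 (1.40 to 3.39) and the transcription factor Irf7 at 3.13 (1.46 to 7.27). Ifit2 gave 29 and 3 UMIs, 14 of those of the butyrate library in 1 cell, and Ifit3, whose copy Ifit3b is close in sequence, gave 23 and 11. Ifnb1, interferon beta itself, gave 61 UMIs in 8 butyrate cells and 24 in 11 RA cells, a ratio of 3.06 (1.88 to 5.13). Oasl1 and Ifih1, of the same list, stood at 1.07 (0.856 to 1.35) and 1.02 (0.824 to 1.27). Of genes induced by interferon gamma, 8 were higher and 8 lower.

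All 13 heat shock genes were higher in butyrate macrophages (median log2 ratio 0.64), led by Hspb1, a small heat shock protein, at 5.86 (4.42 to 7.87) with 132 of its 292 butyrate UMIs in 1 cell, and Dnajb1, a co-chaperone, at 2.41 (2.05 to 2.85). Hspa1a stood at 1.2 (1.15 to 1.26). Of the immediate early genes 15 of 17 were higher (0.28), such as Atf3 at 1.71 (1.54 to 1.90) and Fos at 1.59 (1.46 to 1.74). Heat shock and immediate early genes also respond to handling of the tissue; median mitochondrial shares were 2.02% in butyrate and 2.90% in RA macrophages, and the part of handling in these ratios was not tested.

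**Figure D4:**
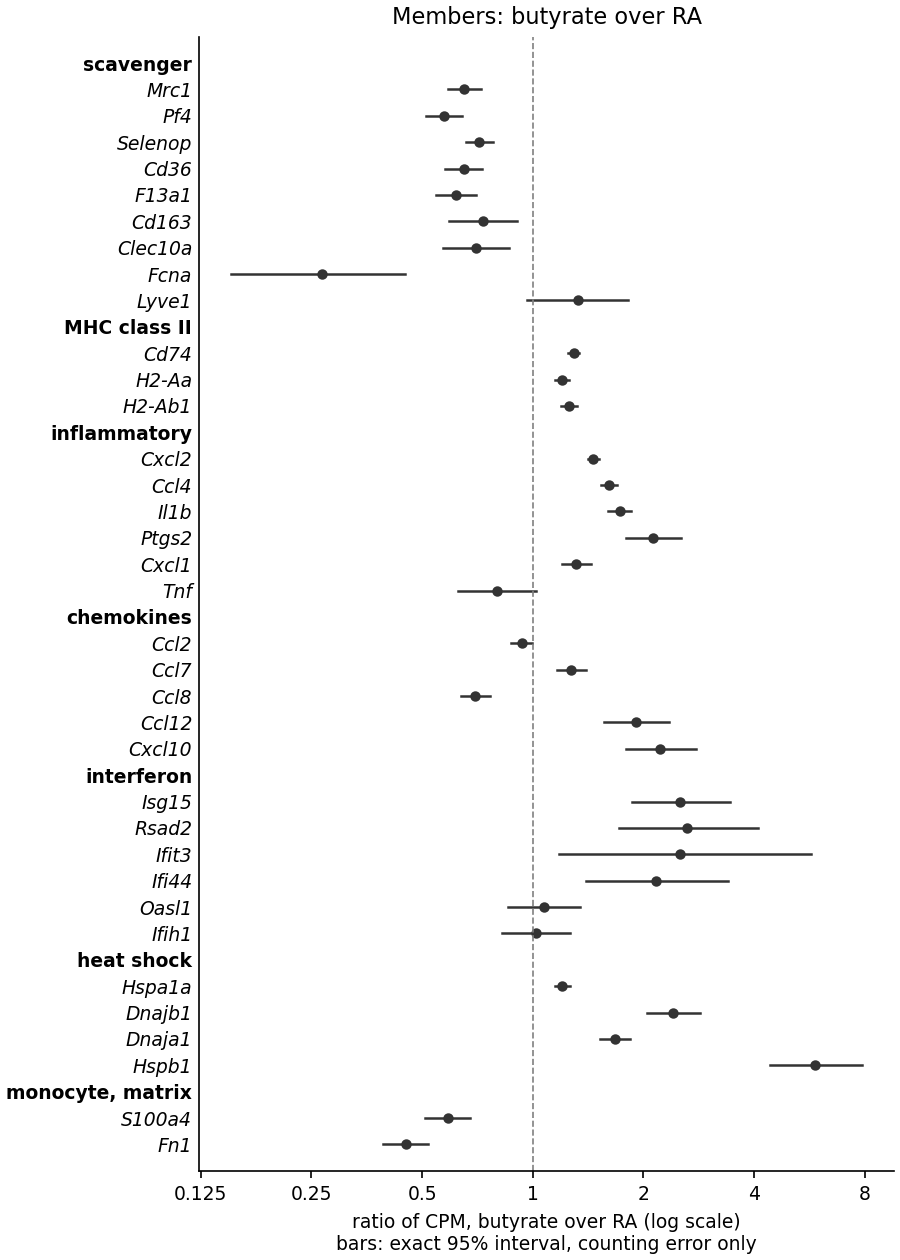
Ratios of CPM in butyrate over RA macrophages (the members of the title) are plotted on a log scale for genes grouped by list, with bars for exact 95% intervals of counting error. Of the 9 scavenger genes plotted, a part of the list, Lyve1 lies right of 1, at 1.32, and the others left of it, while Hspb1 lies farthest to the right at 5.86.

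Genes with the highest and lowest ratios by a fixed rule (at least 50 UMIs, an interval that excludes 1, and no gene whose level in the macrophages of both libraries was below that in T, B, epithelial or fibroblast cells) added few genes of a common kind. At the upper end, Bcl2a1a, a survival gene whose near-identical copies can share reads, stood at 4.21 (2.92 to 6.21), the nuclear receptor Nr4a2 at 2.59 (1.95 to 3.46) and the adhesion molecule Vcam1 at 2.52 (2.01 to 3.17). Med21, a subunit of the Mediator complex, stood at 2.92 (2.21 to 3.89) with 99 of 177 butyrate UMIs in 1 cell, and at 1.68 without the richest cell of each library. At the lower end stood Saa3 and Fcna, given above, and Serpinb2. Serpinb2, an inhibitor of plasminogen activators, gave 7 UMIs in 2 butyrate cells and 164 in 10 RA cells, a ratio of 0.0514 (0.0203 to 0.108). Alox15, a lipoxygenase, gave 7 and 55 UMIs, 44 of those of the RA library in 1 cell. The other genes at the lower end were Nhej1 at 0.187 (0.0712 to 0.418), Kif16b at 0.301 (0.155 to 0.548), Camkk2 at 0.306 (0.157 to 0.558), Lysmd4 at 0.315 (0.146 to 0.623), Atg10 at 0.326 (0.175 to 0.575) and Nrcam at 0.328 (0.158 to 0.632). Those at the upper end also included Gpr137b at 2.76 (1.68 to 4.66) and Sel1l at 2.65 (1.62 to 4.43).

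Other genes, from the lists or chosen after their values were seen, also had ratios far from 1. Fn1 stood at 0.451 (0.392 to 0.518), the endothelin receptor Ednrb at 0.432 (0.330 to 0.560), the calcium-binding protein S100a4 at 0.586 (0.509 to 0.674) and lipoprotein lipase Lpl at 0.474 (0.383 to 0.584). Fabp4 and Fabp5, carriers of fatty acids, went opposite ways at 0.0466 (0.0149 to 0.112), with 110 of 129 RA UMIs in 1 cell, and 2.40 (1.94 to 2.98).

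Genes through which butyrate is known to act were split. Of the receptors, transporters and histone deacetylases, 10 of 19 reached 20 UMIs, and 5 were higher and 5 lower in butyrate macrophages (median log2 ratio -0.15). Hcar2, the receptor, gave 29 UMIs in 13 butyrate cells and 20 in 9 RA cells, a ratio of 1.75 (0.954 to 3.25). The deacetylases Hdac9 and Hdac4 stood at 0.534 (0.376 to 0.748) and 0.544 (0.299 to 0.957), and Gnai2, a G protein subunit that such receptors use, at 1.05 (0.907 to 1.22). Among growth factors, 6 of 15 were higher and 9 lower (-0.31), with Gas6 at 0.780 (0.626 to 0.969), Hbegf at 0.556 (0.397 to 0.772) and amphiregulin, Areg, at 1.96 (1.54 to 2.51). Areg was found in a smaller share of butyrate cells, with a UMI in 13 of 78 butyrate and 22 of 108 RA cells. Its mean over cells was 1.89 UMIs per 10000 in the butyrate library and 1.39 in the RA library, a smaller difference than in the sums.

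Positive cells held most of the UMIs, 497349 in the butyrate library and 625177 in the RA library. In positive cells alone 43.2% of genes lay above 1, 2.26% were at least 2-fold higher and 5.0% at least 2-fold lower, and the lists gave 4 of 27 scavenger, 13 of 14 MHC class II, 15 of 18 interferon and 13 of 13 heat shock genes higher. In the negative cells, where 47.7% of 1823 genes lay above 1 and 9.33% and 11% were at least 2-fold higher and lower, 2 of 11 MHC class II genes, 10 of 12 heat shock genes and 16 of 21 lysosome genes were higher. No test of the difference between the subsets was possible with 9 and 14 negative cells of 1 library each. Mrc1 cannot be compared there, and Lyz2 stood at 1.25 (1.18 to 1.32) in negative and 0.985 (0.940 to 1.03) in positive cells. The negative cells went both ways for Lyz2. Those with Il22ra2 held 49017 CPM in the butyrate and 25922 CPM in the RA library, and those without held 4127 and 10913 CPM.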

How the data were processed

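The unit is the UMI count per gene and cell barcode, deposited as 1 filtered matrix for each library; per the file headers the matrices were written by Cell Ranger 7.1.0. The submitters' processing notes name the mm10 genome, Seurat (4.0.3, 4.0.4) and another release of Cell Ranger, 6.0.1. The libraries held 9959 barcodes and 67894477 UMIs (butyrate) and 10140 barcodes and 61912439 UMIs (RA), with medians of 5141 and 4712 UMIs in kept cells. The libraries shared 27 barcodes. The macrophages and the gene lists were chosen with earlier results of these data known. Counts were summed over cells and given as CPM with exact Poisson intervals; ratios have exact conditional binomial intervals and shares Clopper-Pearson intervals. A ratio against 0 UMIs is a lower bound against 3 counts over the group. Lists (30, with 468 of 473 genes in the files) are described by counts and by medians of log2 ratios with a pseudocount of 0.5, over genes with at least 20 UMIs. Named genes were, beside the markers, the 4 most abundant and 3 farthest in each list. For butyrate over RA they included the 10 highest and 10 lowest ratios with at least 50 UMIs. For positive over negative cells the 10 highest and 10 lowest were ranked by the less extreme ratio of the 2 libraries. These needed at least 20 UMIs in each library. The text gives the leading ones, and other genes were chosen after their values were seen. Scrublet's own threshold marked 3 and 2 barcodes, so it has not worked; no doublet was removed, and leaving out the highest scores (711 and 614 barcodes, with 3 and 6 macrophages) was an alternative. Calculations were tested on simulated independent counts, which do not copy the gathering of a gene's UMIs in few cells. The intervals were thus not tested for that spread. Tools were Python 3.11.15, NumPy 2.4.6, SciPy 1.17.1, pandas 2.3.3, scanpy 1.11.5 and Matplotlib 3.10.9. Gene positions are from GENCODE M21 and promoters from RefSeq, both GRCm38.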

Additional observations from a re-analysis of the deposited data

Results flagged for a closer look

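Some genes had ratios on opposite sides of 1, each past 1.5-fold, in the libraries or the subsets. None of these differences was tested. In positive over negative macrophages, Areg (amphiregulin, a growth factor for epithelium) stood at 0.499 in the butyrate library and 9.14 in the RA library, with 45 of 55 negative butyrate UMIs in 1 cell and 2 UMIs in negative RA cells. Lpl (lipoprotein lipase) stood at 0.442 and 4.34, and all 42 negative butyrate UMIs lay in 1 cell, so the butyrate value rests on that cell. Tnf, a central inflammatory cytokine, stood at 6.03 and 0.608, with 33 of 37 negative RA UMIs in 1 cell; the RA value was 1.12 as a mean over cells and 1.17 after thinning to 1000 UMIs, so the opposite direction was lost. In Lyve1 positive over other positive macrophages, genes of the type I interferon list differed: Ifih1 stood at 1.94 in the butyrate library and 0.502 in the RA library, Oasl1 at 2.19 and 0.486, and Rsad2 at 2.02 and 0.134. With at least 2 Lyve1 UMIs Rsad2 stood at 0.20 in the butyrate library, so the opposite direction was lost there too. Between the libraries, butyrate over RA, Atf3 (a stress-induced transcription factor) stood at 1.87 in positive and 0.559 in negative cells. F13a1 stood at 0.634 in positive and 7.69 in negative cells, but 6 of the 8 negative butyrate UMIs of F13a1 lay in the cell rich in haemoglobin, against 1 UMI in all negative RA cells. Lpl stood at 0.343 and 3.37, the second value resting on the same 1 butyrate cell as above. The negative cells numbered 9 in the butyrate library and 14 in the RA library.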

How the results depend on the processing

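Of 411 recomputed list counts, gene counts and shares, 397 stayed near their value (counts within 1.5 times, ratios and shares within the 95% interval of the reported value), and of 3644 recomputed gene ratios 3283 did, 355 moved and 6 changed direction; the cause was not tested. MHC class II genes higher in butyrate negative cells numbered 2, against 4 with at least 20 C1q UMIs, 4 as a mean over cells, 5 after thinning and 1 without the highest Scrublet scores, where heat shock genes higher there numbered 5 in place of 10. As a mean over cells, 1884 genes were at least 2-fold higher in positive RA cells, in place of 1085, Lyz2 stood at 0.961 butyrate over RA, and Tnf at 1.12 positive over negative in RA cells. Thinned to 1000 UMIs, 922 genes were at least 2-fold higher and 1083 lower in butyrate macrophages (175 and 330 unthinned), 1327 and 1480 were lower in positive cells of the butyrate and RA libraries (436 and 702 unthinned), Pla2g2d stood at 0.889 butyrate over RA, Tnf at 1.17 positive over negative in RA cells, and 62.8% and 62.5% of cells were positive. With at least 2 UMIs of the 3 genes, 78.7% of RA macrophages were positive. With at least 50 UMIs, 7 interferon genes were higher, in place of 15, counted over fewer genes. Cxcl9 stood at 0.912 without the highest Scrublet scores, and Rsad2 at 0.20 in Lyve1 positive butyrate cells with at least 2 Lyve1 UMIs. No paired analysis was possible because each diet has 1 library, and for the same reason no replicate could be left out. Genes under 20 UMIs were not compared, and the 9 and 14 negative cells limit every value of that subset.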
